A study of Mus musculus with 7 samples.

Results

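Semaphorins, ephrins, slits and netrins are families of extracellular signals known for steering growing axons. Semaphorins act through plexins, often with neuropilins as co-receptors, ephrins through Eph receptor tyrosine kinases, slits through Robo receptors and netrins through Unc5 and Dcc receptors. Outside the nervous system the same proteins set how cells adhere, repel each other and keep to their side of a tissue border, and ephrins signal back into the cell that carries them. Their genes were followed here in PanMeso cells, a mouse pancreatic mesothelial line labelled with eGFP, an enhanced green fluorescent protein. Mesothelium is the flat layer over the peritoneum and the abdominal organs.

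The genes were chosen by name, as the protein-coding genes for semaphorins of classes 3 to 7, plexins A to D, Eph receptors, ephrins, slits, robos, netrins and Unc5 receptors. Earlier results of these data were known when this rule was set. The rule found 65 of the 54532 genes in the table, with 20 semaphorins, 9 plexins, 14 Eph receptors, 8 ephrins, 3 slits, 4 robos, 3 netrins and 4 Unc5 receptors. Of these, 52 had enough counts to be tested and 13 did not. RNA sequencing covered 7 libraries in 3 groups. PanMeso cells positive for eGFP were sorted by flow cytometry from orthotopic pancreatic tumours that had formed after co-injection with the pancreatic cancer cells CT1BA5 (n = 2) or BMFA3 (n = 2), and parental PanMeso cells (n = 3) came from culture. All cells had been kept at 33 °C in medium with 870 nM insulin, 3.3 nM EGF (mouse epidermal growth factor) and 400 nM hydrocortisone, and at 37 °C for 3 days before use. Growth in an animal, contact with tumour cells, removal from the medium and flow sorting all separate the sorted groups from parental cells and cannot be told apart. The labels do not say whether libraries of a group are separate tumours, animals or cultures, so p-values measure the spread between these libraries, which may be technical. Strain, sex and age of the host mice are not given there.

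Library totals ranged from 10096839 to 19210598 counts, and libraries of the same group correlated at 0.989 to 0.993 across genes in log2 CPM (CPM is the count of a gene scaled to library size). The mesothelial label was checked with 16 markers, all of which had enough counts to be tested. Their summed level was 1836 to 1912 CPM in CT1BA5-sorted, 2911 to 2913 CPM in BMFA3-sorted and 12500.0 to 13690.0 CPM in parental cells, so the groups did not overlap in it. Of the 16, 14 averaged above 1 CPM in CT1BA5-sorted cells, and all 16 did in BMFA3-sorted and in parental cells. Cldn15 averaged 0.635, 10.1 and 97.2 CPM in CT1BA5-sorted, BMFA3-sorted and parental cells. In the same order Lrrn4 averaged 0.991, 30.6 and 66.8 CPM and Upk3b 20.4, 339 and 2980 CPM. Msln, the mesothelin gene, averaged 409.5, 624 and 5093 CPM in CT1BA5-sorted, BMFA3-sorted and parental cells, and Wt1, a mesothelial transcription factor gene, 118, 257 and 252 CPM. Pdpn, the podoplanin gene, went the other way, with 891, 778 and 545 CPM in the same order, and made up a large share of the sum in CT1BA5-sorted cells. In bulk libraries fewer cells of a type and less RNA per cell cannot be told apart. No library had a count for Ptprc, the pan-leukocyte gene, and a floor of 3 counts puts its limit at 0.276 CPM in parental replicate 1. Of 11 endothelial markers, 3 were tested, namely Kdr, Esam and Egfl7. Kdr averaged 14.6, 23.3 and 99.3 CPM in CT1BA5-sorted, BMFA3-sorted and parental cells and Esam 31.8, 42.8 and 76.6 CPM. Egfl7 went the other way, with 8.26, 4.03 and 2.11 CPM in the same order. The endothelial cadherin gene Cdh5 averaged 0, 0.0663 and 0 CPM in CT1BA5-sorted, BMFA3-sorted and parental cells, and Tie1 and Cldn5 had 0 counts in every library. Summed over the endothelial list, levels were 53.4 to 56.5 CPM in CT1BA5-sorted, 70.1 to 72.2 CPM in BMFA3-sorted and 168 to 184 CPM in parental cells. Among 10 Schwann cell and neuronal markers, Mbp made up most of the sum, which was 54.1 to 55.05 CPM in CT1BA5-sorted, 74.2 to 75.2 CPM in BMFA3-sorted and 136 to 152 CPM in parental cells, and the Schwann cell regulator Sox10 averaged 0.129, 0 and 0 CPM in the same order. Pericyte and stellate cell markers summed to 217 to 246 CPM in CT1BA5-sorted, 158 to 162 CPM in BMFA3-sorted and 77.8 to 82.7 CPM in parental cells, with Abcc9 at 0 counts in every library. Of the tested members of this list, Pdgfrb averaged 136, 80.1 and 19.8 CPM in the same order and Des 22.3, 18.3 and 7.17 CPM. Notch3 averaged 66.7, 59.8 and 53.6 CPM, Cspg4 5.06, 0.0305 and 0.0649 CPM and Rgs5 1.54, 1.52 and 0.138 CPM. Tumour epithelial markers summed to 1.71 to 2.52 CPM in CT1BA5-sorted, 7.69 to 9.81 CPM in BMFA3-sorted and 8.93 to 14.2 CPM in parental cells, with Esrp1, Tff1, Tff2 and Grhl2 at 0 counts in every library. The macrophage list summed to 26.1 to 26.2 CPM in CT1BA5-sorted, 26.8 to 29.7 CPM in BMFA3-sorted and 15.4 to 21.2 CPM in parental cells, with Ptprc, C1qa, C1qb, C1qc and Itgam at 0 counts throughout. In the same order its tested members averaged 8.36, 2.80 and 0.286 CPM for Fcgr3, 5.57, 8.29 and 3.37 CPM for Csf1r and 11.7, 16.1 and 14.01 CPM for Cd14. The 6 neutrophil markers, of which S100a8 was tested, summed to 1.49 to 2.34 CPM in CT1BA5-sorted, 5.30 to 6.76 CPM in BMFA3-sorted and 0.0728 to 0.196 CPM in parental cells, with S100a9, Csf3r and Retnlg at 0 counts throughout. The 11 acinar and islet markers, of which Cela1 was tested, summed to 3.49 to 5.76 CPM in CT1BA5-sorted, 2.85 to 4.20 CPM in BMFA3-sorted and 1.02 to 1.20 CPM in parental cells, with 7 at 0 counts throughout. None of 10 lymphocyte markers was tested, and 7 had 0 counts throughout. These sums moved with the groups, and their part in the results below was not tested.

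The promoters of Sema3c and Sema7a are shown because these genes marked the extremes: Sema3c had the smallest p between the sorted groups, and Sema7a had 0 counts in all parental libraries. Each stretch runs from 250 bases before to 50 after the RefSeq start on the plus strand of GRCm38.p6, where 56 of the 65 genes had a promoter in the RefSeq table. Capitals mark matches, on either strand, to ACGTG (the core of hypoxia response elements), CAGAC (a SMAD-binding element), GGGCGG (the GC box) and TGANTCA (the AP-1 site).
Sema3c promoter, chr5:17574566-17574865: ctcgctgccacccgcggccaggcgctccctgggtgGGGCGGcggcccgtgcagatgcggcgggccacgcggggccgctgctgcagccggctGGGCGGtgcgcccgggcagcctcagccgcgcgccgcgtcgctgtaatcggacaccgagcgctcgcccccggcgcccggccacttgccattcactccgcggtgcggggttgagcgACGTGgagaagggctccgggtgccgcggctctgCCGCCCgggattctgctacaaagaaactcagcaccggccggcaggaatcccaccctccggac
Sema7a promoter, chr9:57939862-57940161: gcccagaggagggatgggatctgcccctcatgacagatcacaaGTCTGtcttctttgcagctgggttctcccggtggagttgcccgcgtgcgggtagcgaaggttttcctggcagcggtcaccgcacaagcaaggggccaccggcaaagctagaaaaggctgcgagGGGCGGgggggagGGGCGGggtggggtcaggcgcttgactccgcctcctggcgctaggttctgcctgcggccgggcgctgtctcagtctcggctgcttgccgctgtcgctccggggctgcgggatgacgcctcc
The Sema3c stretch held 3 GC boxes and 1 ACGTG, and was 75.7% G and C. The Sema7a stretch held 2 GC boxes and 1 CAGAC, and was 67.3% G and C. Neither held TGANTCA, and no marked matches overlapped. Of all 32851 promoters of this length in the table, 35.7% held GGGCGG, 49.6% CAGAC, 19.6% ACGTG and 7.81% TGANTCA, and the median promoter was 52.7% G and C.

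The first question was which guidance genes differed in sorted cells, taken as the mean of both tumour groups, from parental cells in culture. Secreted class 3 semaphorin genes Sema3c, Sema3d and Sema3e fell, while the receptor genes Ephb4 and Unc5b and the membrane-bound semaphorin genes Sema4c and Sema4f rose. Epha2, the guidance gene with the highest level per exon length in parental cells, fell. For Sema3c the fall was in CT1BA5-sorted cells, since its change in BMFA3-sorted over parental cells did not pass. Sema3a, Slit3, Efnb2 and Efna5 fell in this mean, but moved in opposite directions in the tumour groups. Of the 52 tested genes, 23 rose, 26 fell and 3 did not pass edgeR's quasi-likelihood test at a Benjamini-Hochberg adjusted p of 0.05, so that 94.2% were called, against 69.6% of all 13784 genes tested (34.8% higher and 34.8% lower). Since most genes passed, a change of more than 2-fold was also tested (glmTreat in edgeR). It called 10 guidance genes higher and 13 lower, which is 44.2% of those tested, against 17.2% of all genes, 7.13% higher and 10.1% lower (7 higher and 14 lower when libraries were scaled by their totals alone). The median log2 fold change of the guidance genes was -0.19, against 0.0063 for all genes. A gene that passed the filter only through a group where it was high had to differ. These shares, and those of the comparisons below, therefore describe the list and support nothing about it.

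The tumour groups were also set against parental cells separately, with the same 3 parental libraries in both comparisons. In CT1BA5-sorted cells 21 of 52 guidance genes were higher and 26 lower, or 90.4% against 70.7% of all genes (35.5% higher and 35.1% lower). More than 2-fold changes were called for 15 higher and 14 lower genes, or 55.8% against 21.8% of all genes, 9.32% higher and 12.5% lower (9 and 18 by library totals alone, and 9 and 13 with DESeq2). In BMFA3-sorted cells 25 were higher and 19 lower, or 84.6% against 59.0% of all genes (29.2% higher and 29.9% lower). There 9 rose and 5 fell by more than 2-fold, or 26.9% against 12.4% of all genes, 5.7% higher and 6.68% lower (8 and 7 by library totals alone). Without parental replicate 2 or without parental replicate 3, the count of genes that fell by more than 2-fold in BMFA3-sorted cells was 3. The map of all 52 genes shows the libraries of each group alike and the CT1BA5-sorted libraries farthest from parental for Sema3a, Sema3c, Slit3, Epha4 and Epha7.

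**Figure D1:**
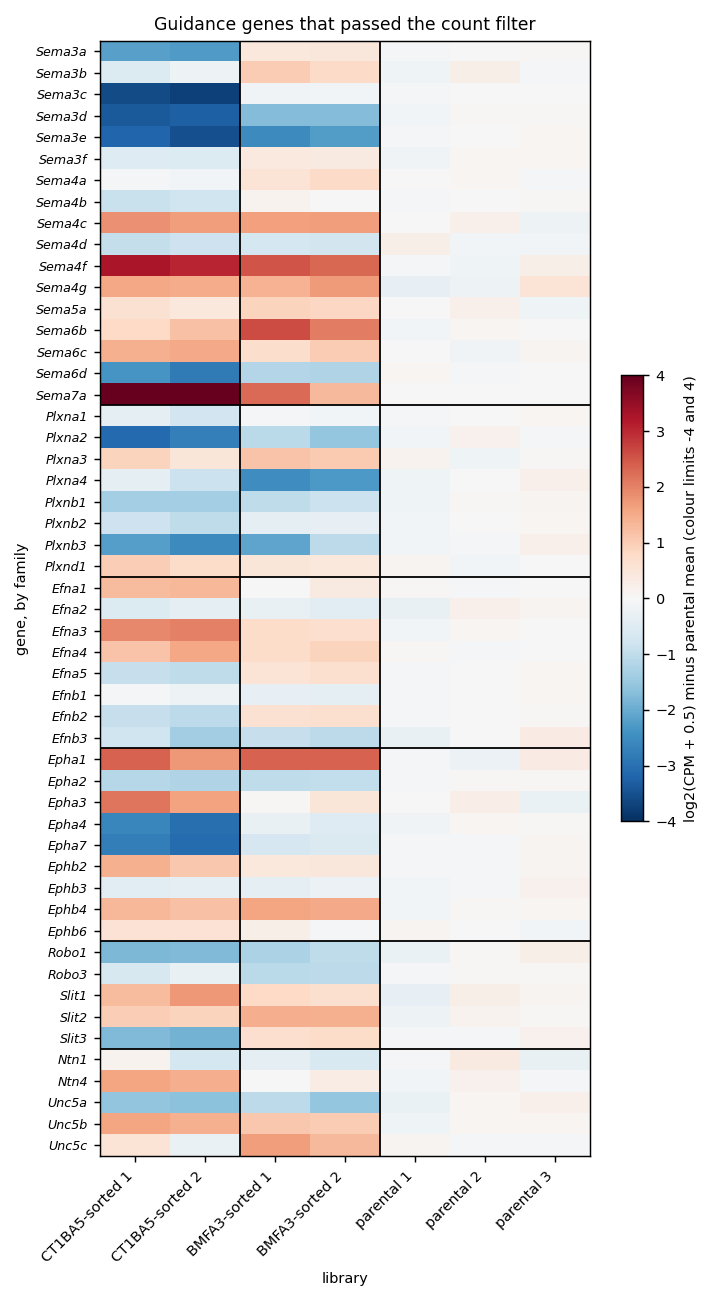
Level of each of the 52 tested guidance genes (rows, by family) in each of the 7 libraries (columns), as log2(CPM + 0.5) minus the mean of the 3 parental libraries, with red higher and blue lower than parental. Sema7a stands out in red and Sema3c, Sema3d and Sema3e in blue in the CT1BA5-sorted libraries, and Sema3a and Slit3 are red in the BMFA3-sorted libraries and blue in the CT1BA5-sorted ones.

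Levels of different genes were compared as CPM per kb of exon, using the merged exons of each gene, which understates genes with many long isoforms. On that scale the class 3 semaphorins, which are secreted and bind neuropilins or plexins, summed to 36.2 ± 1.13 in CT1BA5-sorted, 177 ± 1.69 in BMFA3-sorted and 193 ± 7.13 in parental cells (CPM per kb, mean ± SD, n = 2, 2 and 3). Sema3c made up 61.0% of this sum in BMFA3-sorted and 61.1% in parental cells, whereas Sema3f led in CT1BA5-sorted cells with 53.5%. The class 4 semaphorins, which span the membrane, summed to 20.6 ± 0.683 in CT1BA5-sorted, 26.1 ± 0.338 in BMFA3-sorted and 16.1 ± 0.364 in parental cells. EphA receptors summed to 59.4 ± 2.32 in CT1BA5-sorted, 72.1 ± 0.0766 in BMFA3-sorted and 138 ± 7.14 in parental cells, and EphB receptors to 47.5 ± 2.62 in CT1BA5-sorted, 52.9 ± 1.66 in BMFA3-sorted and 26.5 ± 1.14 in parental cells. On this scale EphA receptor sums were lower, and EphB receptor sums higher, in all sorted libraries than in all parental ones. Unc5 receptors summed to 93.8 ± 7.42 in CT1BA5-sorted, 68.3 ± 1.69 in BMFA3-sorted and 33.4 ± 3.13 in parental cells, almost all of it Unc5b, with no overlap between the groups. Slits summed to 8.07 ± 0.423 in CT1BA5-sorted, 41.7 ± 1.17 in BMFA3-sorted and 25.04 ± 2.41 in parental cells, and their receptors, the robos, to 2.82 ± 0.475 in CT1BA5-sorted, 1.87 ± 0.0702 in BMFA3-sorted and 4.07 ± 0.203 in parental cells. In each group the slit sum was higher than the robo sum in every library. Robo3 made up 99.2% of the robo sum in CT1BA5-sorted, 97.8% in BMFA3-sorted and 95.6% in parental cells. Since Robo3 binds slits only weakly in mammals, these sums do not compare slits with their main receptors.

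**Figure D2:**
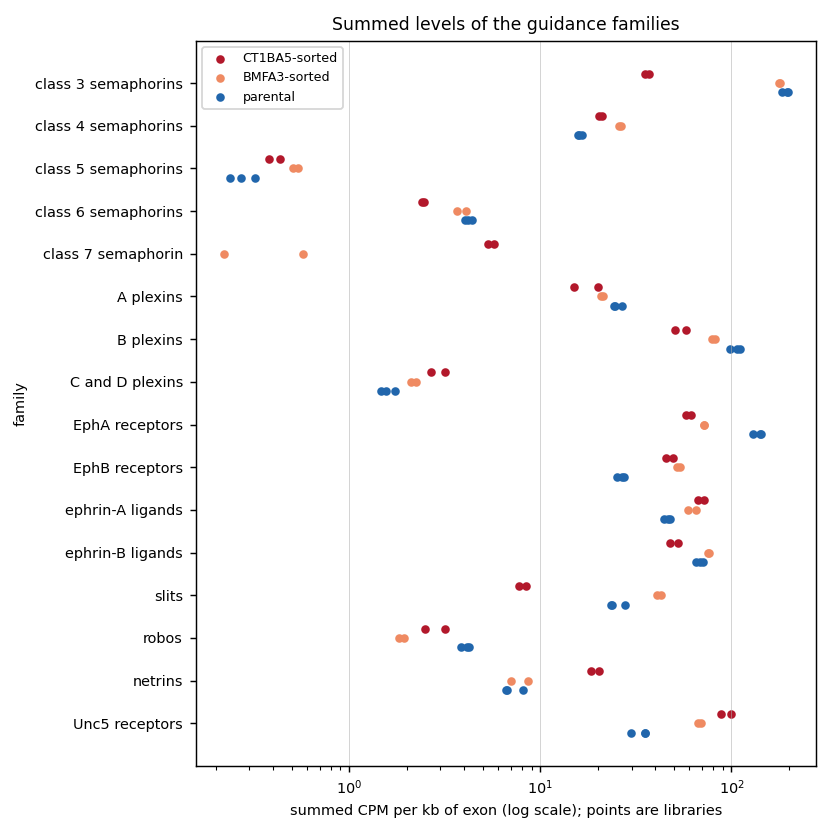
Summed level of each guidance family (CPM per kb of exon, log scale) in each library, with CT1BA5-sorted libraries above BMFA3-sorted and parental libraries in each row. The parental libraries have no class 7 point because Sema7a had 0 counts there. Class 3 semaphorins and slits are lowest in the CT1BA5-sorted libraries, and Unc5 receptors and EphB receptors are lowest in the parental libraries.

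Among the secreted semaphorins, Sema3c, which acts through neuropilin and plexin complexes, stood at 69.9 and 63.4 CPM in CT1BA5-sorted, 765 and 781 CPM in BMFA3-sorted and 821, 847 and 855 CPM in parental cells. The BMFA3-sorted libraries lay just under the parental ones and the CT1BA5-sorted libraries far below both. The log2 fold change was -3.66 ± 0.076 (SE, edgeR adjusted p = 8.63e-19) for CT1BA5-sorted over parental cells and -0.12 ± 0.064 (SE, edgeR adjusted p = 0.109) for BMFA3-sorted over parental cells. For BMFA3-sorted cells it did not pass, but it did without CT1BA5 replicate 1 (edgeR adjusted p = 0.048) and with library totals alone (edgeR adjusted p = 0.0142). Sema3d, a related secreted semaphorin, stood at 13.2 and 14.2 CPM in CT1BA5-sorted, 42.03 and 42.02 CPM in BMFA3-sorted and 131, 144 and 146 CPM in parental cells. Sema3e, which binds plexin D1 directly, stood at 12.4 and 9.66 CPM in CT1BA5-sorted, 19.2 and 24.1 CPM in BMFA3-sorted and 109, 116 and 120.2 CPM in parental cells. Both fell in both sorted groups with no overlap between any groups. For Sema3d the log2 fold change was -3.36 ± 0.088 (SE, edgeR adjusted p = 2.74e-17) in CT1BA5-sorted and -1.74 ± 0.075 (SE, edgeR adjusted p = 1.50e-13) in BMFA3-sorted cells over parental cells. For Sema3e it was -3.37 ± 0.11 (SE, edgeR adjusted p = 1.14e-15) and -2.41 ± 0.10 (SE, edgeR adjusted p = 9.15e-14) in the same order.

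Sema3a, the semaphorin known for collapsing axonal growth cones, moved in opposite directions in the tumour groups. It stood at 50.7 and 47.3 CPM in CT1BA5-sorted, 310.0 and 318 CPM in BMFA3-sorted and 226, 229 and 237 CPM in parental cells, with the BMFA3-sorted libraries highest and the CT1BA5-sorted libraries lowest. Over parental cells the log2 fold change was -2.23 ± 0.073 (SE, edgeR adjusted p = 7.47e-16) in CT1BA5-sorted and 0.44 ± 0.064 (SE, edgeR adjusted p = 6.05e-06) in BMFA3-sorted cells. Sema3f, which prefers neuropilin 2, stood at 102 and 99.1 CPM in CT1BA5-sorted, 189.5 and 188 CPM in BMFA3-sorted and 131, 154 and 154 CPM in parental cells, in the same order of groups but with smaller differences. Over parental cells it had log2 fold changes of -0.54 ± 0.078 (SE, edgeR adjusted p = 4.46e-06) in CT1BA5-sorted and 0.37 ± 0.075 (SE, edgeR adjusted p = 3.37e-04) in BMFA3-sorted cells. Sema3b averaged 5.72, 14.3 and 7.55 CPM in CT1BA5-sorted, BMFA3-sorted and parental cells and rose in BMFA3-sorted cells, with a log2 fold change over parental of 0.92 ± 0.17 (SE, edgeR adjusted p = 9.12e-05). Its difference between CT1BA5-sorted and parental cells did not pass (log2 fold change -0.41 ± 0.19 SE, edgeR adjusted p = 0.0616), but did without parental replicate 1 (edgeR adjusted p = 0.0356) and without CT1BA5 replicate 2 (edgeR adjusted p = 0.027). Sema3g was not tested, with at most 5 counts in a library.

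Sema3d, Sema3a, Sema3e and Sema3c lie in this order within 5.35 Mb of chromosome 5 (GRCm38, GENCODE M21, 12383385 to 17730268). The stretch held 4 other tested genes. Hgf, the gene of hepatocyte growth factor, lies between Sema3e and Sema3c and averaged 0.997, 9.56 and 0.255 CPM in CT1BA5-sorted, BMFA3-sorted and parental cells. Cacna2d1, a calcium channel subunit gene, averaged 50.5, 56.4 and 63.6 CPM in the same order. In sorted over parental cells 2 of these 4 genes were higher and 2 lower, where 34.8% of all genes were higher and 34.8% lower. Hgf was higher than in parental cells in both sorted groups, whereas Sema3d and Sema3e were lower in both. In CT1BA5-sorted over BMFA3-sorted cells none of the 4 was higher and 3 were lower, namely Gm43719, Speer3 and Hgf. Cacna2d1 did not pass, and all 4 semaphorin genes of the stretch were lower. In that comparison 25.5% of all genes were higher and 25.3% lower. Whether the stretch changed as a unit was not tested. The predicted gene Gm43719, which starts within 2 kb of the end of Sema3a, averaged 1.93, 11.8 and 7.44 CPM, the same order of groups as Sema3a.

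**Figure D3:**
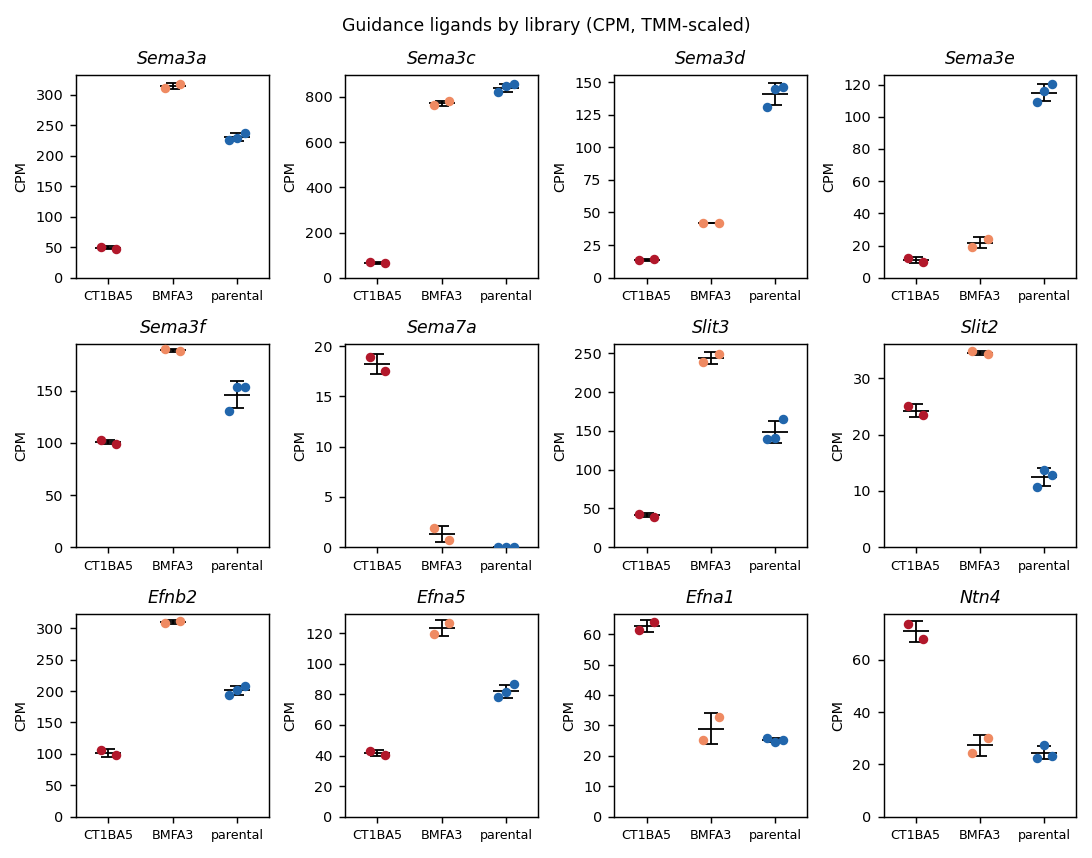
CPM of 12 guidance ligand genes in each library, with CT1BA5-sorted, BMFA3-sorted and parental cells from left to right, points for libraries, and black marks for the mean and SD (n = 2, 2 and 3). Sema3a, Sema3f, Slit3, Efnb2 and Efna5 are highest in BMFA3-sorted and lowest in CT1BA5-sorted cells, while Efna1, Ntn4 and Sema7a are highest in CT1BA5-sorted cells.

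The membrane-bound semaphorins moved apart. Sema7a, the semaphorin held by a lipid anchor, known to bind plexin C1 and integrins, stood at 18.95 and 17.5 CPM in CT1BA5-sorted, 1.89 and 0.729 CPM in BMFA3-sorted and 0, 0 and 0 CPM in parental cells. With 0 counts over the parental libraries, a floor of 3 counts over that group made it at least 274-fold higher in CT1BA5-sorted and at least 19.99-fold higher in BMFA3-sorted cells, counting error only. The bound for CT1BA5-sorted cells was 150.1-fold without parental replicate 3, and that for BMFA3-sorted cells, which rests on 31 and 11 counts, was 10.9-fold without BMFA3 replicate 1 and 10.9-fold without parental replicate 3. Its known plexin, Plxnc1, did not exceed 5 counts in any library, too few for a test. Sema4c, a class 4 semaphorin that binds plexin B2, stood at 48.8 and 44.00 CPM in CT1BA5-sorted, 43.3 and 44.6 CPM in BMFA3-sorted and 13.6, 15.5 and 11.7 CPM in parental cells. The sorted groups overlapped each other in Sema4c and both lay above parental cells, with a log2 fold change of 1.74 ± 0.10 (SE, edgeR adjusted p = 3.44e-12) for sorted over parental cells. At 7.27% of its exon length Sema4c overlaps D430040D24Rik on the other strand, which averaged 1.06 CPM. Sema4f, low in all groups, stood at 7.25 and 6.15 CPM in CT1BA5-sorted, 4.14 and 3.45 CPM in BMFA3-sorted and 0.276, 0.218 and 0.441 CPM in parental cells, and rose with a log2 fold change of 3.90 ± 0.31 (SE, edgeR adjusted p = 1.11e-09) in sorted over parental cells.

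Sema6d, a transmembrane semaphorin that binds plexin A1, fell. It stood at 6.99 and 4.83 CPM in CT1BA5-sorted, 16.3 and 16.1 CPM in BMFA3-sorted and 39.5, 36.02 and 37.2 CPM in parental cells, and the groups did not overlap. In sorted over parental cells the log2 fold change was -1.93 ± 0.10 (SE, edgeR adjusted p = 1.81e-12). The other tested class 6 genes rose in sorted over parental cells: Sema6b, which averaged 1.94, 5.76 and 0.727 CPM in CT1BA5-sorted, BMFA3-sorted and parental cells, and Sema6c, which averaged 8.19, 5.20 and 2.63 CPM. Sema4g rose (8.85, 9.15 and 2.90 CPM, in the same order) and so did Sema5a (7.59, 9.76 and 5.19 CPM), a semaphorin with thrombospondin repeats. Taken against parental alone, Sema5a in CT1BA5-sorted cells had a log2 fold change of 0.57 ± 0.19 (SE, edgeR adjusted p = 0.0111), which did not pass without parental replicate 3 (edgeR adjusted p = 0.0691), without CT1BA5 replicate 1 (edgeR adjusted p = 0.0885) or with library totals alone (edgeR adjusted p = 0.118). Sema4b, the highest class 4 gene per exon length in parental cells, averaged 27.3, 52.01 and 49.4 CPM and fell in CT1BA5-sorted cells (log2 fold change over parental -0.86 ± 0.087 SE, edgeR adjusted p = 3.16e-08). Sema4d, which binds plexin B1, averaged 2.95, 3.39 and 5.95 CPM and fell in both. Sema4a averaged 16.4, 27.5 and 17.3 CPM and was higher in BMFA3-sorted than in parental cells (log2 fold change 0.68 ± 0.11 SE, edgeR adjusted p = 2.97e-05). Of the 20 semaphorin genes, 17 were tested, and 8 rose, 7 fell and 2 did not pass in sorted over parental cells, where 34.8% of all genes were higher and 34.8% lower. That count includes Sema4a as higher (log2 fold change 0.30 ± 0.10 SE, edgeR adjusted p = 0.00973), which did not pass without parental replicate 3 (edgeR adjusted p = 0.0687), without BMFA3 replicate 2 (edgeR adjusted p = 0.0563) or with library totals alone (edgeR adjusted p = 0.195).

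Plexins, the semaphorin receptors, signal through a domain that acts on small GTPases. Of 9 plexin genes 8 were tested, of which 2 rose and 6 fell in sorted over parental cells, where 34.8% of all genes were higher and 34.8% lower. In BMFA3-sorted over parental cells 2 rose, 5 fell and 1 did not pass, where 29.2% of all genes were higher and 29.9% lower. Plxnb2, the plexin gene with the highest level per exon length in every group, stood at 433 and 379.6 CPM in CT1BA5-sorted, 593 and 614 CPM in BMFA3-sorted and 723, 788 and 809 CPM in parental cells, in order from CT1BA5-sorted to parental with no overlap. It fell in sorted over parental cells, with a log2 fold change of -0.64 ± 0.059 (SE, edgeR adjusted p = 8.18e-09). Plxna1, a partner of neuropilins, stood at 134 and 101 CPM in CT1BA5-sorted, 164 and 159.6 CPM in BMFA3-sorted and 169, 169.6 and 181 CPM in parental cells and fell in CT1BA5-sorted cells (log2 fold change over parental -0.56 ± 0.091 SE, edgeR adjusted p = 1.88e-05), while its change in BMFA3-sorted cells did not pass (log2 fold change -0.10 ± 0.089 SE, edgeR adjusted p = 0.348). Plxna2 stood at 1.04 and 1.48 CPM in CT1BA5-sorted, 5.79 and 4.04 CPM in BMFA3-sorted and 11.9, 14.3 and 12.3 CPM in parental cells. All sorted libraries lay below all parental ones, with a log2 fold change of -2.37 ± 0.18 (SE, edgeR adjusted p = 3.49e-10).

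Plxna4, a plexin A gene known for its part in Sema3a signalling, had its lowest level in BMFA3-sorted cells. It stood at 47.6 and 33.6 CPM in CT1BA5-sorted, 10.5 and 11.99 CPM in BMFA3-sorted and 53.6, 60.1 and 70.3 CPM in parental cells. Against parental cells it fell in both groups, with a log2 fold change of -0.60 ± 0.12 (SE, edgeR adjusted p = 2.90e-04) in CT1BA5-sorted and -2.46 ± 0.15 (SE, edgeR adjusted p = 2.31e-11) in BMFA3-sorted cells. Plxnb1, the Sema4d receptor gene, stood at 16.7 and 16.98 CPM in CT1BA5-sorted, 21.4 and 24.1 CPM in BMFA3-sorted and 38.9, 45.6 and 47.6 CPM in parental cells and fell by 1.18 on the log2 scale in sorted over parental cells (SE 0.088, edgeR adjusted p = 3.37e-10). The plexins that rose were Plxnd1, the receptor of Sema3e, which averaged 21.2, 15.8 and 11.5 CPM in CT1BA5-sorted, BMFA3-sorted and parental cells, and Plxna3, which averaged 12.5, 16.6 and 7.48 CPM. Plxnb3 had 2 counts over the CT1BA5-sorted and 113 over the parental libraries, a level 35.5-fold lower (95% exact interval 9.61 to 297, counting error only).

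The neuropilins, co-receptors shared with vascular endothelial growth factor, differed from each other. Nrp1 stood at 83.9 and 71.3 CPM in CT1BA5-sorted, 131 and 127 CPM in BMFA3-sorted and 121, 141 and 148 CPM in parental cells, and Nrp2 at 14.04 and 9.19 CPM in CT1BA5-sorted, 3.41 and 3.84 CPM in BMFA3-sorted and 1.93, 3.93 and 3.19 CPM in parental cells. Nrp1 was lower and Nrp2 higher in CT1BA5-sorted than in parental cells, with log2 fold changes of -0.82 ± 0.089 (SE, edgeR adjusted p = 8.96e-08) for Nrp1 and 1.92 ± 0.24 (SE, edgeR adjusted p = 5.46e-07) for Nrp2. In BMFA3-sorted over parental cells neither passed, with log2 fold changes of -0.085 ± 0.085 (SE, edgeR adjusted p = 0.41) for Nrp1 and 0.23 ± 0.28 (SE, edgeR adjusted p = 0.49) for Nrp2.

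Ephrin-A proteins are held at the membrane by a lipid anchor and ephrin-B proteins span it. Among the A ligands, Efna1, Efna3 and Efna4 rose and Efna5 parted with the tumour groups. Efna1 stood at 61.2 and 64.1 CPM in CT1BA5-sorted, 25.3 and 32.6 CPM in BMFA3-sorted and 25.9, 24.5 and 25.2 CPM in parental cells, and the CT1BA5-sorted libraries were above all others. Over parental cells the log2 fold change of Efna1 was 1.32 ± 0.10 (SE, edgeR adjusted p = 3.31e-10) in CT1BA5-sorted and 0.20 ± 0.10 (SE, edgeR adjusted p = 0.106) in BMFA3-sorted cells, where the change passed without BMFA3 replicate 1 (edgeR adjusted p = 0.0122). Efna3 stood at 23.4 and 25.00 CPM in CT1BA5-sorted, 9.93 and 9.54 CPM in BMFA3-sorted and 5.34, 6.11 and 5.79 CPM in parental cells, and Efna4 at 14.9 and 19.8 CPM in CT1BA5-sorted, 11.2 and 12.4 CPM in BMFA3-sorted and 6.81, 6.19 and 6.52 CPM in parental cells. In both genes all sorted libraries lay above all parental ones, with log2 fold changes of 1.41 ± 0.12 (SE, edgeR adjusted p = 4.82e-09) for Efna3 and 1.13 ± 0.14 (SE, edgeR adjusted p = 4.52e-07) for Efna4 in sorted over parental cells. These 3 genes lie within 66.3 kb of chromosome 3 (GRCm38, 89271733 to 89338028), and no other gene overlapping that stretch had enough counts to be tested.

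Efna5 stood at 43.2 and 40.3 CPM in CT1BA5-sorted, 119 and 127 CPM in BMFA3-sorted and 78.3, 81.2 and 86.6 CPM in parental cells, highest in BMFA3-sorted and lowest in CT1BA5-sorted cells with no overlap. Its log2 fold change over parental cells was -0.98 ± 0.076 (SE, edgeR adjusted p = 6.47e-10) in CT1BA5-sorted and 0.58 ± 0.069 (SE, edgeR adjusted p = 4.99e-07) in BMFA3-sorted cells. Efnb2, the ephrin of arteries and a ligand of EphB4, had the same order of groups. It stood at 106 and 97.6 CPM in CT1BA5-sorted, 308 and 312 CPM in BMFA3-sorted and 194, 202 and 209 CPM in parental cells, with a log2 fold change over parental cells of -0.98 ± 0.069 (SE, edgeR adjusted p = 1.38e-10) in CT1BA5-sorted and 0.62 ± 0.065 (SE, edgeR adjusted p = 1.03e-07) in BMFA3-sorted cells. Efnb1, the B ligand with the highest level per exon length in CT1BA5-sorted and parental cells, stood at 127 and 115 CPM in CT1BA5-sorted, 107 and 103 CPM in BMFA3-sorted and 127, 135 and 139.8 CPM in parental cells. Its fall was small, with a log2 fold change of -0.25 ± 0.06 (SE, edgeR adjusted p = 0.00114) in sorted over parental cells. Efna2 averaged 8.70, 9.32 and 12.3 CPM in CT1BA5-sorted, BMFA3-sorted and parental cells. Its log2 fold change in sorted over parental cells was -0.46 ± 0.14 (SE, edgeR adjusted p = 0.00589), and it did not pass without parental replicate 2 (edgeR adjusted p = 0.0524). Efnb3 was below 1.2 CPM in every library.

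Among the Eph receptors, Epha2 and Ephb4 had the highest levels per exon length in sorted cells and moved in opposite directions. Epha2, a receptor kinase gene of epithelial sheets, stood at 272 and 261 CPM in CT1BA5-sorted, 299.9 and 304 CPM in BMFA3-sorted and 568, 619 and 622 CPM in parental cells. Ephb4, the receptor of ephrin-B2, stood at 159.9 and 143 CPM in CT1BA5-sorted, 193 and 186 CPM in BMFA3-sorted and 58.7, 66.7 and 67.01 CPM in parental cells. Sorted and parental libraries did not overlap in either gene, with log2 fold changes of -1.09 ± 0.053 (SE, edgeR adjusted p = 4.01e-13) for Epha2 and 1.40 ± 0.067 (SE, edgeR adjusted p = 3.46e-13) for Ephb4 in sorted over parental cells. Per kb of exon, Epha2 was at 57.04 in CT1BA5-sorted, 64.6 in BMFA3-sorted and 129 in parental cells, and Ephb4 at 32.7 in CT1BA5-sorted, 40.8 in BMFA3-sorted and 13.8 in parental cells. Of the 14 Eph receptor genes 9 were tested, of which 5 rose and 4 fell in sorted over parental cells, where 34.8% of all genes were higher and 34.8% lower.

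Epha4, which binds both A and B ephrins, stood at 8.60 and 6.39 CPM in CT1BA5-sorted, 44.1 and 37.7 CPM in BMFA3-sorted and 49.8, 57.9 and 56.5 CPM in parental cells. Epha7 stood at 2.07 and 1.56 CPM in CT1BA5-sorted, 10.5 and 11.1 CPM in BMFA3-sorted and 16.3, 16.1 and 18.4 CPM in parental cells. Both were lowest in CT1BA5-sorted cells, with log2 fold changes over parental of -2.86 ± 0.13 (SE, edgeR adjusted p = 1.70e-13) for Epha4 and -3.21 ± 0.20 (SE, edgeR adjusted p = 1.50e-11) for Epha7. In BMFA3-sorted over parental cells the log2 fold change of Epha4 was -0.42 ± 0.10 (SE, edgeR adjusted p = 0.00145), and it did not pass without BMFA3 replicate 2 (edgeR adjusted p = 0.0598). Ephb2 rose in CT1BA5-sorted cells and stood at 21.7 and 16.9 CPM in CT1BA5-sorted, 10.6 and 10.8 CPM in BMFA3-sorted and 7.64, 7.35 and 8.54 CPM in parental cells (log2 fold change over parental 1.29 ± 0.15 SE, edgeR adjusted p = 1.66e-07). Ephb6, a receptor without kinase activity, stood at 31.8 and 31.6 CPM in CT1BA5-sorted, 24.98 and 20.1 CPM in BMFA3-sorted and 22.7, 21.03 and 19.4 CPM in parental cells, with a log2 fold change of 0.36 ± 0.10 (SE, edgeR adjusted p = 0.00278) in sorted over parental cells that did not pass with library totals alone (edgeR adjusted p = 0.0714). Ephb3 stood at 31.4 and 33.4 CPM in CT1BA5-sorted, 33.5 and 35.98 CPM in BMFA3-sorted and 39.6, 40.9 and 48.02 CPM in parental cells and fell slightly, by 0.36 on the log2 scale in sorted over parental cells (SE 0.081, edgeR adjusted p = 5.41e-04). Epha1 stood at 5.18 and 3.19 CPM in CT1BA5-sorted, 5.24 and 5.17 CPM in BMFA3-sorted and 0.552, 0.437 and 0.883 CPM in parental cells, but shares 6.01% of its exon length with Zyx on the other strand. Zyx, a focal adhesion gene, averaged 891, 748 and 397 CPM in CT1BA5-sorted, BMFA3-sorted and parental cells, and since counting by strand is not stated, reads of the pair cannot be told apart. Epha3, with 33 counts at most in any library, averaged 1.73, 0.227 and 0.103 CPM in the same order.

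**Figure D4:**
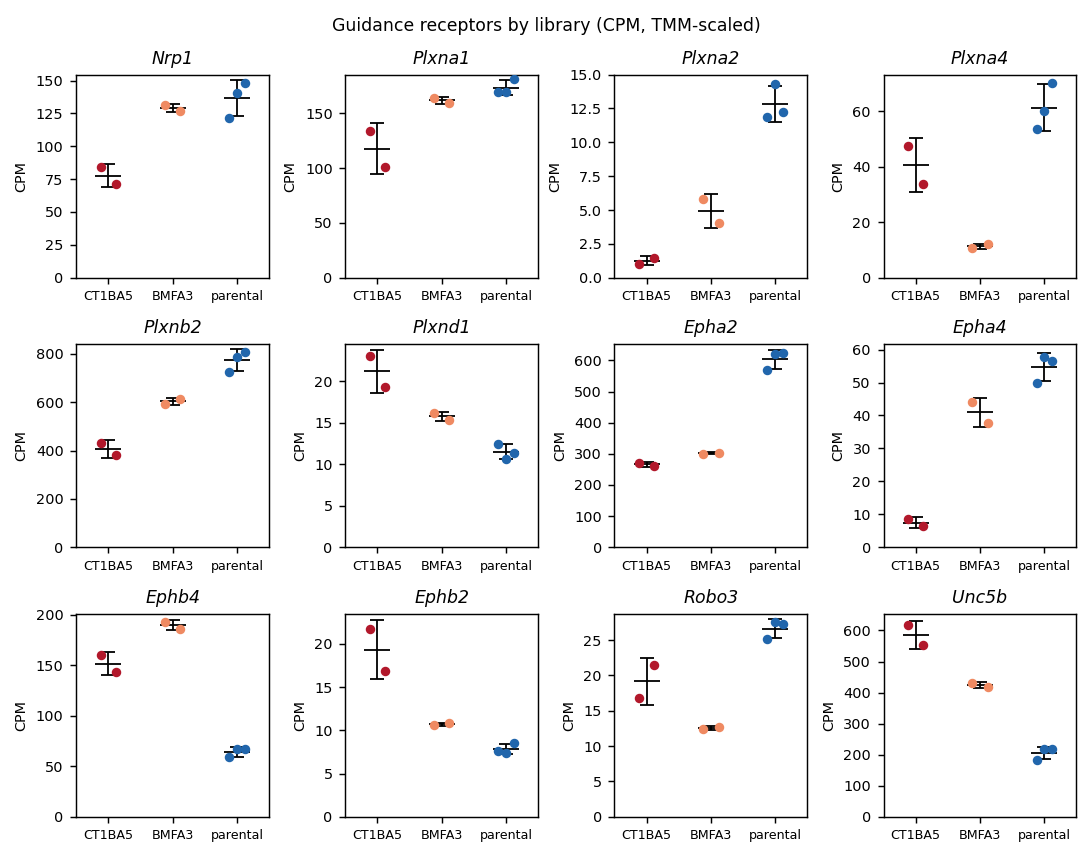
CPM of 12 guidance receptor and co-receptor genes in each library, with CT1BA5-sorted, BMFA3-sorted and parental cells from left to right, points for libraries, and black marks for the mean and SD (n = 2, 2 and 3). Ephb4 and Unc5b are higher and Epha2, Plxna2 and Plxnb2 lower in all sorted libraries than in all parental ones, and Plxna4 and Robo3 are lowest in BMFA3-sorted cells.

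Among slits and robos, Slit2 rose, Robo3 fell and Slit3 moved in opposite directions in the tumour groups. Slit3, a secreted ligand of the robos, stood at 43.5 and 39.6 CPM in CT1BA5-sorted, 239 and 249 CPM in BMFA3-sorted and 139.7, 141 and 165 CPM in parental cells, highest in BMFA3-sorted and lowest in CT1BA5-sorted cells. Its log2 fold change over parental cells was -1.84 ± 0.089 (SE, edgeR adjusted p = 3.57e-13) in CT1BA5-sorted and 0.71 ± 0.078 (SE, edgeR adjusted p = 1.68e-07) in BMFA3-sorted cells. Slit2 stood at 25.04 and 23.4 CPM in CT1BA5-sorted, 34.8 and 34.3 CPM in BMFA3-sorted and 10.7, 13.8 and 12.9 CPM in parental cells, and all sorted libraries lay above all parental ones (log2 fold change 1.21 ± 0.10 SE, edgeR adjusted p = 1.65e-09 in sorted over parental cells). Slit1 averaged 1.62, 0.727 and 0.25 CPM in CT1BA5-sorted, BMFA3-sorted and parental cells, and rose in CT1BA5-sorted cells (log2 fold change over parental 2.56 ± 0.53 SE, edgeR adjusted p = 2.71e-04). Robo3, a divergent robo that binds Nell2 and only weakly slits in mammals, was the robo gene with the highest level in every group. It stood at 16.8 and 21.5 CPM in CT1BA5-sorted, 12.4 and 12.7 CPM in BMFA3-sorted and 25.1, 27.6 and 27.2 CPM in parental cells, and fell by 0.79 on the log2 scale in sorted over parental cells (SE 0.10, edgeR adjusted p = 7.40e-07). Robo1, a main slit receptor in many tissues, had 2 counts over the CT1BA5-sorted and 69 over the parental libraries, a level 21.7-fold lower (95% exact interval 5.78 to 183, counting error only). Robo4, known from endothelium, reached 7 counts at most in any library, and Robo2 3 counts.

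Unc5b, which encodes a netrin receptor, had the highest level per exon length of all guidance genes in CT1BA5-sorted cells. It stood at 618 and 553 CPM in CT1BA5-sorted, 431 and 418 CPM in BMFA3-sorted and 184, 217 and 218 CPM in parental cells, in falling order from CT1BA5-sorted to parental cells with no overlap. Against parental cells it rose in both, with a log2 fold change of 1.51 ± 0.075 (SE, edgeR adjusted p = 6.03e-13) in CT1BA5-sorted and 1.04 ± 0.075 (SE, edgeR adjusted p = 3.74e-10) in BMFA3-sorted cells. Per kb of exon it was at 93.6 in CT1BA5-sorted, 67.8 in BMFA3-sorted and 32.9 in parental cells. Ntn4, a netrin of basement membranes, stood at 73.8 and 67.9 CPM in CT1BA5-sorted, 24.5 and 30.2 CPM in BMFA3-sorted and 22.6, 27.4 and 23.3 CPM in parental cells and rose in CT1BA5-sorted cells (log2 fold change over parental 1.54 ± 0.10 SE, edgeR adjusted p = 4.63e-11), while its change in BMFA3-sorted cells did not pass (log2 fold change 0.16 ± 0.11 SE, edgeR adjusted p = 0.221). Ntn1, the best known netrin, stood at 4.08 and 2.02 CPM in CT1BA5-sorted, 2.74 and 2.19 CPM in BMFA3-sorted and 3.40, 4.80 and 2.89 CPM in parental cells. The CT1BA5-sorted libraries overlapped both other groups, and its log2 fold change in sorted over parental cells, -0.40 ± 0.26 (SE, edgeR adjusted p = 0.173), did not pass, although it did without CT1BA5 replicate 1 (log2 fold change -0.71, edgeR adjusted p = 0.0259). Unc5c rose in BMFA3-sorted cells and averaged 2.54, 7.04 and 2.16 CPM in CT1BA5-sorted, BMFA3-sorted and parental cells (log2 fold change of BMFA3-sorted over parental 1.71 ± 0.26 SE, edgeR adjusted p = 1.23e-05). Unc5a averaged 0.175, 0.343 and 1.58 CPM in the same order and fell in both sorted groups. Dcc, the classical netrin receptor, averaged 0.0323, 0 and 0 CPM and was not tested. Its relative Neo1, which binds netrins and repulsive guidance molecules, stood at 86.2 and 72.1 CPM in CT1BA5-sorted, 167 and 175 CPM in BMFA3-sorted and 203, 233 and 241 CPM in parental cells and fell by 0.96 on the log2 scale in sorted over parental cells (SE 0.07, edgeR adjusted p = 2.25e-10).

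The 13 genes that were not tested had few or no counts. Epha8, Ephb1, Sema5b and Unc5d had 0 counts in every library. Epha10, Epha5, Epha6, Ntn5, Plxnc1, Robo2, Robo4, Sema3g and Sema6a had at most 7 counts in a library. At this depth their changes were not detectable.

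The other question was whether cells from the CT1BA5 and BMFA3 tumours differed from each other. Sema3c, Sema3a and Slit3 were several-fold lower, and Sema7a, Plxna4 and Ntn4 higher, in CT1BA5-sorted than in BMFA3-sorted cells. Of the 52 tested genes 15 were higher, 25 lower and 12 did not pass, so that 76.9% were called, against 50.8% of all genes (25.5% higher and 25.3% lower). More than 2-fold changes were called for 4 higher and 10 lower genes, or 26.9% against 6.35% of all genes, 2.68% higher and 3.66% lower. The count of 4 became 2 without BMFA3 replicate 1, and 2 with DESeq2. The median log2 fold change was -0.34, against -0.0061 for all genes.

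The 4 genes called higher by more than 2-fold in CT1BA5-sorted over BMFA3-sorted cells were Sema7a, Epha3, Plxna4 and Ntn4. Their log2 fold changes were 3.77 ± 0.29 (SE, edgeR adjusted p = 7.21e-09) for Sema7a, 1.86 ± 0.16 (SE, edgeR adjusted p = 9.96e-09) for Plxna4 and 1.38 ± 0.11 (SE, edgeR adjusted p = 4.57e-09) for Ntn4. Sema7a in BMFA3-sorted cells rested on 31 and 11 counts, and without BMFA3 replicate 1 its log2 fold change was 4.63. Epha3, at 2 and 5 counts in BMFA3-sorted libraries, had a log2 fold change of 2.93 ± 0.68 (SE, edgeR adjusted p = 0.00136), and 3.74 without BMFA3 replicate 2. It passed the count filter only through the CT1BA5-sorted libraries, so it had to be higher there and its p adds no support. Among the 10 called lower by more than 2-fold were secreted ligands: Sema3c (-3.53 ± 0.078 SE, edgeR adjusted p = 1.73e-17), Sema3a (-2.68 ± 0.077 SE, edgeR adjusted p = 8.92e-16), Sema3d (-1.62 ± 0.10 SE, edgeR adjusted p = 4.72e-11) and Slit3 (-2.55 ± 0.095 SE, edgeR adjusted p = 3.42e-14). The others were the membrane-bound ligands Efnb2 (-1.60 ± 0.075 SE, edgeR adjusted p = 1.10e-12), Efna5 (-1.56 ± 0.081 SE, edgeR adjusted p = 5.26e-12) and Sema6d (-1.44 ± 0.16 SE, edgeR adjusted p = 3.08e-07), and the receptors Epha4 (-2.43 ± 0.14 SE, edgeR adjusted p = 2.55e-11), Epha7 (-2.55 ± 0.21 SE, edgeR adjusted p = 7.70e-09) and Plxna2 (-1.99 ± 0.29 SE, edgeR adjusted p = 1.35e-05). All 10 had CT1BA5-sorted libraries below all BMFA3-sorted libraries, which follows from how they were chosen and adds no support. Sema4c and Ephb3, which moved the same way in both tumour groups, were among the genes that did not pass (log2 fold change 0.082 ± 0.11 SE, edgeR adjusted p = 0.56 for Sema4c and -0.10 ± 0.11 SE, edgeR adjusted p = 0.462 for Ephb3). For Epha2 the difference was small (log2 fold change -0.18 ± 0.07 SE, edgeR adjusted p = 0.0392) and did not pass without parental replicate 2, without BMFA3 replicate 1, without BMFA3 replicate 2 or without CT1BA5 replicate 2 (edgeR adjusted p = 0.0641, 0.14, 0.151 and 0.0921), nor with no filter on low counts (edgeR adjusted p = 0.0545). Plxnb3 had 2 counts over the CT1BA5-sorted and 17 over the BMFA3-sorted libraries, a level 7.63-fold lower (95% exact interval 1.81 to 68.1, counting error only), and passed (edgeR adjusted p = 0.0313). It did not pass without BMFA3 replicate 2 (edgeR adjusted p = 0.49) or without CT1BA5 replicate 2 (edgeR adjusted p = 0.158).

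**Figure D5:**
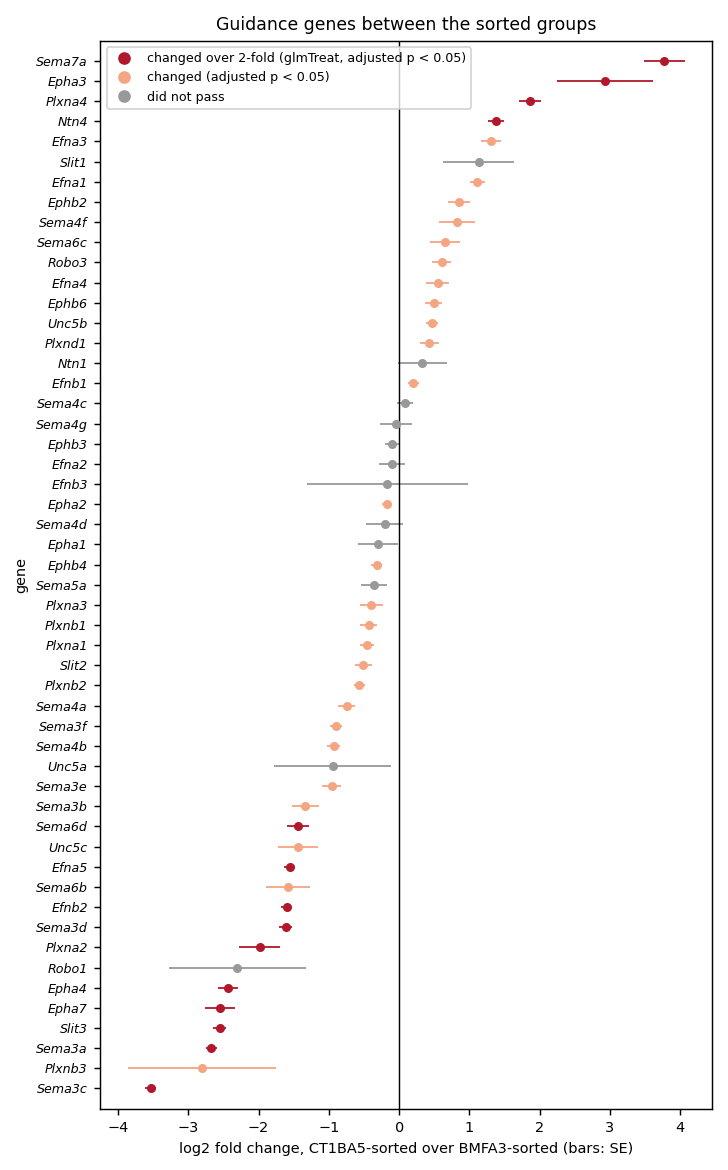
Log2 fold change of each tested guidance gene between CT1BA5-sorted and BMFA3-sorted cells (points, bars for SE), ordered by value, with dark red for a change of more than 2-fold, light red for any change and grey for genes that did not pass. Sema7a, Epha3, Plxna4 and Ntn4 lie at the right end and Sema3c, Plxnb3, Sema3a, Slit3, Epha7 and Epha4 at the left end.

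Other genes of these pathways were followed in 4 lists of co-receptors, binding partners and signal carriers. Of 20 semaphorin co-receptors and transducers 18 were tested, and 6 were higher and 6 lower in sorted over parental cells, so that 66.7% were called, against 69.6% of all genes. Dpysl3 and Dpysl5 are genes of the collapsin response mediator family, which is known for carrying semaphorin signals. They moved apart: Dpysl3 was higher and Dpysl5 lower in all sorted libraries than in all parental ones. Dpysl3 stood at 487 and 438 CPM in CT1BA5-sorted, 193 and 186 CPM in BMFA3-sorted and 98.5, 91.99 and 91.8 CPM in parental cells, and Dpysl5 at 0.194 and 0 CPM in CT1BA5-sorted, 1.16 and 2.05 CPM in BMFA3-sorted and 22.9, 23.4 and 26.05 CPM in parental cells. Arhgef12, a guanine nucleotide exchange factor bound by B plexins, stood at 79.1 and 53.3 CPM in CT1BA5-sorted, 107 and 110.3 CPM in BMFA3-sorted and 258, 291 and 310.0 CPM in parental cells. The log2 fold changes in sorted over parental cells were 1.66 ± 0.06 (SE, edgeR adjusted p = 4.21e-15) for Dpysl3 and -1.76 ± 0.092 (SE, edgeR adjusted p = 1.44e-12) for Arhgef12, and Dpysl5 had 3 counts over the CT1BA5-sorted libraries.

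Among 22 ephrin signal carriers 20 were tested, with 9 higher and 5 lower in sorted over parental cells (70.0% called, against 69.6% of all genes). Vav2, a guanine nucleotide exchange factor below Eph receptors, averaged 45.6, 87.4 and 156 CPM in CT1BA5-sorted, BMFA3-sorted and parental cells, Chn2, a chimaerin that turns off Rac, 8.15, 14.9 and 32.1 CPM, and Adam10, a protease that sheds ephrins, 250.4, 369.9 and 466 CPM. All 3 fell. Of 11 slit and robo partners 4 were higher and 3 lower, with all 11 tested (63.6% called, against 69.6% of all genes). Gpc1, a heparan sulfate proteoglycan that binds slits, stood at 115 and 111 CPM in CT1BA5-sorted, 58.4 and 55.5 CPM in BMFA3-sorted and 8.56, 9.39 and 7.75 CPM in parental cells and rose with a log2 fold change of 3.24 ± 0.083 (SE, edgeR adjusted p = 1.91e-17) in sorted over parental cells. Enah, an actin regulator, rose as well and averaged 105, 81.6 and 26.6 CPM in CT1BA5-sorted, BMFA3-sorted and parental cells, while Srgap2, a GTPase-activating protein below robos, averaged 56.8, 83.2 and 134 CPM and fell. Of 19 netrin partners 15 were tested, with 5 higher and 8 lower (86.7% called, against 69.6% of all genes). Flrt3, a ligand of Unc5 receptors, averaged 50.2, 15.6 and 6.30 CPM in the same order, Maged1, which binds Unc5 proteins, 1061, 791 and 357 CPM, and Lrrc4c, the netrin-G1 receptor gene, 10.6, 29.02 and 2.00 CPM. All 3 rose in sorted over parental cells. Over the 4 lists together, with 64 genes tested, 24 genes were higher and 22 lower in sorted over parental cells (20 and 28 by library totals alone). These are 37.5% and 34.4%, against 34.8% and 34.8% of all genes, shares near the background. In BMFA3-sorted over parental cells 27 were higher and 13 lower, or 42.2% and 20.3%, against 29.2% and 29.9% of all genes. In CT1BA5-sorted over parental cells 21 were higher and 23 lower (16 and 32 by library totals alone), or 32.8% and 35.9%, against 35.5% and 35.1% of all genes. In CT1BA5-sorted over BMFA3-sorted cells 16 were higher and 27 lower (10 and 32 by library totals alone, and 9 and 26 without BMFA3 replicate 2), or 25.0% and 42.2%, against 25.5% and 25.3% of all genes.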

How the data were processed

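RNA sequencing of 7 libraries was deposited by the authors as raw gene counts per Ensembl mouse gene, with a column for each library. The mm10 genome, CASAVA and DESeq2 1.24.0 are named per the submitters' processing notes, with no role. Aligner, counter, annotation release and strand setting were not given in the sources used here. Symbols, coordinates and exon lengths came from GENCODE M21 (GRCm38), which matched 54495 of 54532 genes, and promoters from RefSeq (GRCm38.p6). The netrin gene Ntn3 was not matched and is not analysed here.

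A filter by group (filterByExpr, minimum count 10) left 13784 genes, which hold 99.9% of counts. TMM factors of 0.897 to 1.08 scaled the libraries, and CPM values use those sizes. In edgeR 4.0.16 under R 4.3.3, 1 model of the 3 groups was fitted to every gene, with the quasi-likelihood F test for any change and glmTreat for changes of more than 2-fold, with Benjamini-Hochberg adjustment over all tested genes at 0.05. All libraries share 1 estimate of the spread (biological coefficient of variation 0.0830), since groups of 2 give little alone. Sorted over parental is the mean of both tumour groups against parental cells. The fit was also tested on simulated counts for sorted over parental cells, with 200 genes changed per set. It recovered 79.5% of 1.5-fold, 94.8% of 2-fold and 100% of 4-fold changes, and 6.63%, 3.21% and 3.88% of its calls were false. The simulation gave all genes the same spread and changed far fewer genes than were called here, so these rates need not hold for these data. Intervals and floors (3 counts) cover counting error only.

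The members, the companion and marker lists and the tests were chosen with earlier results of these data known. Genes were named by a rule: the 15 members with the smallest p for sorted over parental and the 8 for CT1BA5 over BMFA3, the 3 highest per exon length in each family, members called in opposite directions in the tumour groups, and per companion list the 3 with the smallest p. Other members are given by mean levels, except a few with values by library that were chosen after their values were seen (Sema7a, Efna3, Efna4, Ephb2, Ephb3 and Epha1 among them). Alternatives were RLE and library-total scaling, other filters, DESeq2 1.42.0, limma-voom (limma 3.58.1), only the groups compared, a replicate block and leaving out each library.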

Additional observations from a re-analysis of the deposited data

Results flagged for a closer look

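Efna5, Efnb2, Sema3a, Sema3f and Slit3 were called higher in BMFA3-sorted and lower in CT1BA5-sorted cells than in the same parental libraries. Opposite calls against the same libraries largely fix that the sorted groups differ. The p-values between the sorted groups therefore add no separate support for these genes. The log2 fold change of CT1BA5-sorted over BMFA3-sorted cells was -2.68 ± 0.077 (SE, edgeR adjusted p = 8.92e-16) for Sema3a, -2.55 ± 0.095 (SE, edgeR adjusted p = 3.42e-14) for Slit3 and -1.60 ± 0.075 (SE, edgeR adjusted p = 1.10e-12) for Efnb2. It was -1.56 ± 0.081 (SE, edgeR adjusted p = 5.26e-12) for Efna5 and -0.90 ± 0.085 (SE, edgeR adjusted p = 3.52e-08) for Sema3f. In the mean of both sorted groups these opposite changes offset each other, so that Sema3f, for example, had a log2 fold change of -0.087 ± 0.064 (SE, edgeR adjusted p = 0.235) over parental cells, which did not pass, but did without parental replicate 1 (log2 fold change -0.17, edgeR adjusted p = 0.0219).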

How the results depend on the processing

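Counts of guidance and companion genes stayed within 1.5 times of the reported count under every alternative except the following. Genes lower by more than 2-fold in BMFA3-sorted over parental cells numbered 5, but 3 with DESeq2, 3 with limma-voom and 3 under the replicate block, and 3 to 5 over leaving out each library in turn. Genes higher by more than 2-fold in CT1BA5-sorted over parental cells numbered 15, but 9 with library totals alone and 9 with DESeq2. Those higher by more than 2-fold in CT1BA5-sorted over BMFA3-sorted cells numbered 4, but 2 with DESeq2, and 2 to 4 over leaving out each library. Companion genes higher in CT1BA5-sorted over BMFA3-sorted cells numbered 16, but 10 with library totals alone, and 9 to 15 over leaving out each library. Library totals alone moved the median log2 fold change of all genes to -0.15 for sorted, -0.23 for CT1BA5-sorted and -0.071 for BMFA3-sorted over parental cells, and to -0.16 for CT1BA5-sorted over BMFA3-sorted cells. These shifts follow from leaving out the TMM factors. The factors were 0.911 and 0.897 in CT1BA5-sorted, 0.996 and 1.02 in BMFA3-sorted and 1.08, 1.05 and 1.06 in parental libraries. Why they differed between the groups was not tested.

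Of 3051 repeats of single fold changes 2940 kept direction and call, 86 lost the call, 16 gained it and 9 changed sign, none of them called. The changes of sign were for Ephb6 (log2 fold change -0.0519 without BMFA3 replicate 1, 0.258 without BMFA3 replicate 2) and Sema4b (-0.00405 with library totals alone) in BMFA3-sorted over parental cells, and Ntn1 (0.158 without CT1BA5 replicate 2, -0.849 without CT1BA5 replicate 1) and Unc5c (-0.319 without CT1BA5 replicate 1, 0.651 without CT1BA5 replicate 2) in CT1BA5-sorted over parental cells. In CT1BA5-sorted over BMFA3-sorted cells they were for Efnb3 (0.0729 without BMFA3 replicate 1, 0.679 without CT1BA5 replicate 2 and -4.31 without CT1BA5 replicate 1), Ntn1 (-0.287 without CT1BA5 replicate 1, 0.72 without CT1BA5 replicate 2), Sema4c (-0.0753 with library totals alone) and Sema4g (0.12 without BMFA3 replicate 2, -0.205 without BMFA3 replicate 1). What the replicate numbers stand for is not stated. Correlations of the deviations of same-numbered libraries were -0.101 to 0.0769. With 2 libraries in each sorted group their deviations mirror each other, so this check cannot exclude pairing or a shared batch. With the replicate block, 12 calls of single genes were lost (Efna5, Efnb2, Epha3 and Sema4a in sorted over parental, Efna2 and Sema5a in CT1BA5-sorted over parental, Efna2, Efnb3, Ephb3 and Slit1 in BMFA3-sorted over parental, and Efnb1 and Epha2 in CT1BA5-sorted over BMFA3-sorted cells), and the counts for sorted over parental cells were 21 higher and 24 lower. A fit of only the groups compared equals the reported fit for sorted over parental cells. Depth limits Efnb3, Robo1, Plxnb3, Slit1 and Epha3, each with a group of few counts.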
